A study of Mus musculus with 6 samples.

Results

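The respiratory chain and the ATP synthase are described here through 79 genes, of 22180 genes with a probe set of their own on the array. They were taken by gene symbol, as nuclear genes named for subunits of complexes I to V, and each was read from its probe set with the highest mean log2 signal over the 6 arrays. By symbol, 33 belonged to complex I, 4 to complex II, 9 to complex III, 15 to complex IV and 18 to complex V. Of the 79, 77 were protein-coding and 2 were pseudogenes (Uqcrh-ps1 and Atp5c1-ps). Ndufa4 and Ndufa4l2 were kept with complex I by their symbols, although the Ndufa4 protein is now assigned to complex IV. Both groups were male C57Bl/6J mice with the FAH5981SB point mutation of Fah. This mutation disrupts fumarylacetoacetate hydrolase, the last enzyme of tyrosine breakdown, and models hereditary tyrosinemia. In the withdrawal group (3 arrays), NTBC was withheld for the last 7 days, starting at 11 weeks of age, and in the continuous group (3 arrays) NTBC (nitisinone) was given at 8 mg/l in the drinking water throughout. NTBC blocks the pathway upstream of its toxic intermediates. All livers were taken at 12 weeks, and the labels list a chow low in tyrosine and phenylalanine and 3% dextrose in the water for both groups. Replicates are described as biological, but no label ties an array to an animal, and the p-values therefore reflect only how these 6 samples spread.

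The respiratory chain moves electrons from NADH (complex I) and succinate (complex II) through ubiquinone to complex III, then through cytochrome c to complex IV, which reduces oxygen. Complexes I, III and IV pump protons across the inner mitochondrial membrane, and complex V, the ATP synthase, lets them flow back to make ATP. Most subunits are encoded in the nucleus and imported. Hepatocytes are rich in mitochondria, and the chain supplies ATP for urea synthesis, gluconeogenesis and biosynthesis. Textbook regulators of these promoters are nuclear respiratory factor 1 (NRF1, not the oxidative stress factor NRF2), the ETS factor GABP and YY1.

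The promoters of the members that rose after withdrawal are shown because these genes carry the called increases. They are RefSeq windows of GRCm38.p6, from 250 bases before to 50 bases after the annotated start, written 5′ to 3′ on the gene's strand. Capitals mark matches, on either strand, to the NRF1 consensus palindrome or to CCGGAAG (GABP), AAGATGG (YY1) or GGGCGG (SP1). The windows are chr6:11907401-11907700 on the minus strand for Ndufa4, chr17:56717512-56717811 on the plus strand for Ndufa11 and chr4:40279372-40279671 on the minus strand for Ndufb6.
Ndufa4: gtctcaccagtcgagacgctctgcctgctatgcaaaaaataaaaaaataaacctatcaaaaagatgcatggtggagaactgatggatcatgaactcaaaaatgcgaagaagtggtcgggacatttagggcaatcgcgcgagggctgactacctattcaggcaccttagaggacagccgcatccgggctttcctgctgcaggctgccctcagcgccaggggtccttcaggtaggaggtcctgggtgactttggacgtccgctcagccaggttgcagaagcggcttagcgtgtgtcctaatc
Ndufa11: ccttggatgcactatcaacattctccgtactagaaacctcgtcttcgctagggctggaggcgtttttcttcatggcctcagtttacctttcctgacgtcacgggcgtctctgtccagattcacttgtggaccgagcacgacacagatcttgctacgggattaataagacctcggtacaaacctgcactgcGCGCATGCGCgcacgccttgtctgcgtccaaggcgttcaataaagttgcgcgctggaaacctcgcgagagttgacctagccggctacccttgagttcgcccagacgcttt
Ndufb6: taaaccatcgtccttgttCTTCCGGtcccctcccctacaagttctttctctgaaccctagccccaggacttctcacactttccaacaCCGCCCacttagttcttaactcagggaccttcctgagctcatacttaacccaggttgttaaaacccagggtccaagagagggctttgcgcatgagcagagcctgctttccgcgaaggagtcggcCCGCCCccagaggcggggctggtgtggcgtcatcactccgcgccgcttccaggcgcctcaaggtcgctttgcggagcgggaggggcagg
Ndufa11 holds a match to the NRF1 letters at positions -60 to -51 from the start, and that match is palindromic. Ndufb6 holds 1 GABP match and 2 SP1 matches, and Ndufa4 holds 0 matches to these 4 motifs in this window. Of the 79 members, 64 had a window in the table, with 69 windows between them. The NRF1 letters were in 16 of the 69 (23.2%), against 4.60% of all 32851 windows. The GABP letters were in 24.6% of members' windows and 8.86% of all, the YY1 letters in 14.5% and 6.34%, and the SP1 letters in 40.6% and 35.7%. A match is a description of the letters and not a binding site.

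Each array held 34472 probe sets. In the fit over all of them, 3241 (9.40%) passed an adjusted p of 0.05 with limma, 2139 higher and 1102 lower after withdrawal. Array medians ran from 5.21 to 5.39 in the withdrawal group and from 5.29 to 5.44 in the continuous group on the log2 scale. The interquartile range was 2.53 to 2.78 in withdrawal arrays and 2.39 to 2.62 in continuous arrays. The signal of Fah was 7.66 ± 0.23 after withdrawal and 7.82 ± 0.42 on continuous NTBC (SD, n = 3 each), with a log2 change of -0.15 (SE 0.22, limma adjusted p = 0.718). Hpd encodes the enzyme that NTBC inhibits, and its signal was 12.02 ± 0.06 after withdrawal and 12.66 ± 0.14 on continuous NTBC (log2 change -0.64, adjusted p = 0.0211). All 8 hepatocyte markers were measured, and they are given with the markers of other cell types at the end.

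Changes in transcripts of the respiratory chain and ATP synthase were small in size after 7 days without NTBC. Of 79 members, 3 rose (Ndufa11, Ndufa4 and Ndufb6) and 1 fell (Uqcrq), while 75 did not pass. The call of Ndufa11 rests on 1 of its 2 probe sets, and the second had a change of -0.31. This is 5.06% of the members, beside 9.40% of all probe sets (6.21% higher and 3.20% lower). The groups did not overlap for 29 members, 24 higher and 5 lower. Of all probe sets, 13.9% lay wholly higher and 13.7% wholly lower (27.6% in all). Of probe sets with a mean log2 signal of at least 7, as 61 members had, 37.9% lay wholly higher and 16.5% wholly lower. No called member differed by more than 1.59-fold, and the widest fold of any member was 1.65 (Atp5g1, which did not pass). For 75 of 79 members the 95% interval of the change lay within a 2-fold change in either direction (1 on the log2 scale). The exceptions were Ndufa11, Uqcrq, Atp5mpl and Atp5g1. In whole liver, fewer cells of a type and less RNA per cell cannot be told apart.

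Ndufa4, which sits with cytochrome c oxidase, had log2 signals of 11.95, 12.07 and 11.95 after withdrawal, against 11.38, 11.31 and 11.56 on continuous NTBC. All 3 withdrawal arrays were above all 3 continuous ones, and the fold was 1.49 (log2 change 0.57, SE 0.14, limma adjusted p = 0.0337). Ndufa11, an accessory subunit of the membrane arm of complex I, had 9.78, 9.87 and 9.43 after withdrawal, against 9.14, 9.12 and 8.82 on continuous NTBC. The groups did not overlap, although withdrawal replicate 3 was the lowest of its group, and the fold was 1.59 (log2 change 0.67, SE 0.17, adjusted p = 0.0365). With its 2 probe sets averaged the change was 0.18 and did not pass (adjusted p = 0.565). Ndufb6, another accessory subunit of the membrane arm, had 8.84, 8.92 and 8.72 after withdrawal, against 8.23, 8.34 and 8.35 on continuous NTBC. Its groups were also separate, at 1.43-fold (log2 change 0.52, SE 0.14, adjusted p = 0.0463). Uqcrq, a small subunit of complex III that contacts bound quinone, was the member that fell. It had 7.05, 7.22 and 6.80 after withdrawal, against 7.72, 7.76 and 7.55 on continuous NTBC, with no overlap (log2 change -0.65, SE 0.16, adjusted p = 0.0297).

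These 4 calls lie close to the threshold. Leaving out withdrawal replicate 1 left 0 called members with limma, 9 at an unadjusted p under 0.05, and 4.22% of all probe sets passed. Leaving out continuous replicate 2 also left 0, with 17 at an unadjusted p under 0.05, and 6.03% of all passed. Without withdrawal replicate 2, withdrawal replicate 3, continuous replicate 1 or continuous replicate 3, the members called were 1, 1, 3 and 2, and 5.21%, 7.63%, 12.2% and 6.88% of all probe sets passed. Among the 6 sets with 1 array left out, Ndufa11 passed in 2, Uqcrq in 2, Ndufa4 in 1 and Ndufb6 in 0, each with an unchanged sign. Centring each array on its median ended the call of Uqcrq (adjusted p = 0.102), and quantile normalization ended those of Ndufb6 (0.171) and Ndufa11 (0.0522). Limma's array weights gave 15 called members of 79 (16.2% of all probe sets), and its trend and robust options gave 12 (11.1%). In both of these settings the share of members called was above that of all probe sets, and in the main fit it was below. Using the mean of each gene's probe sets gave 3 (9.23%), and the replicate number as a block gave 2 (9.57%).

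**Figure D1:**
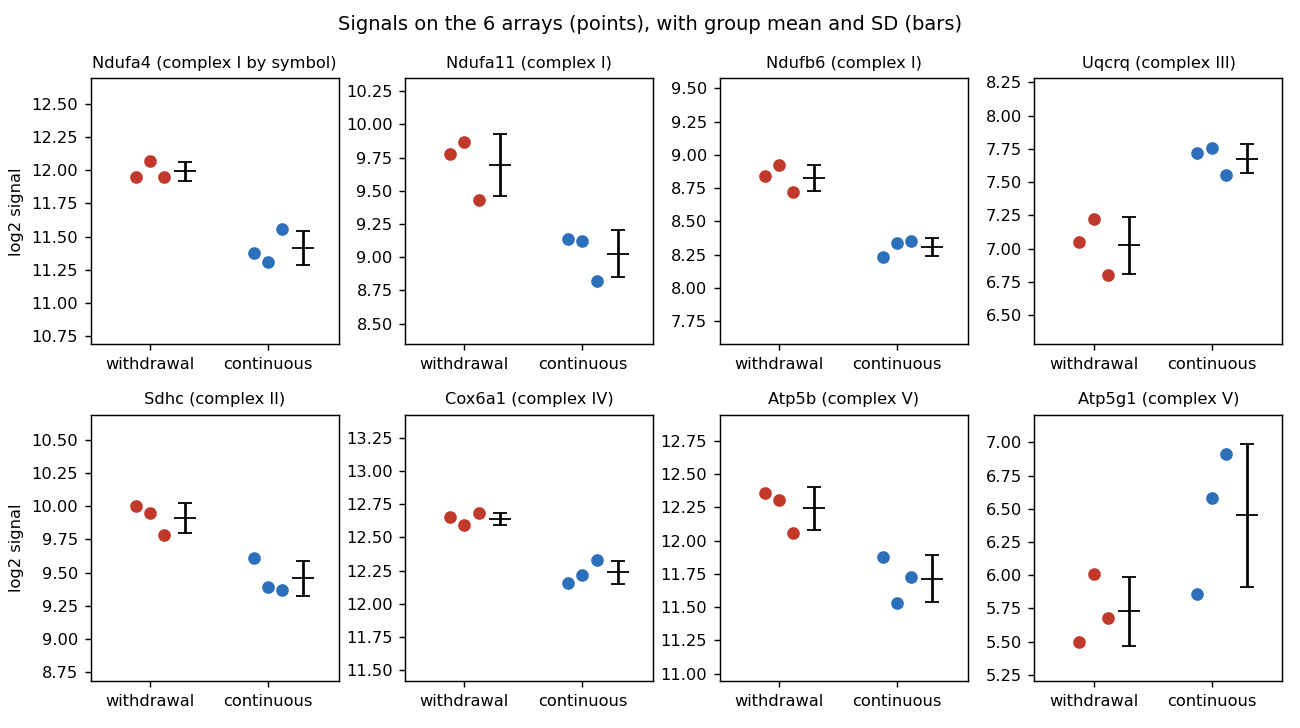
Log2 signals of 8 members on the 6 arrays, with each withdrawal group left of its continuous group. Points are arrays, bars are the group mean and SD, and each axis spans 2 log2 units. The groups are separate in all panels except Atp5g1, and Ndufa4, Ndufa11, Ndufb6 and Uqcrq are the ones that passed.

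Complex I takes electrons from NADH. Of its 33 members, 3 rose and 0 fell (9.09% called, beside 9.40% of all probe sets and 27.2% of those with a mean log2 signal of at least 7). The median log2 change was 0.21, with a range from -0.30 to 0.67. The withdrawal arrays lay wholly above the continuous ones for 12 members and wholly below for 1. Of all probe sets, 13.9% and 13.7% did so. Of probe sets with a mean log2 signal of at least 7, as 29 of the 33 had, 37.9% and 16.5% did so. The 6 measured core subunits, most of which carry the flavin or iron-sulfur centres, had a median of 0.30. A mean log2 signal of at least 7 was found for 5 of the 6. None of the 6 passed with limma (3 had an unadjusted p under 0.05, where 23.5% of all probe sets did). Among these core subunits, Ndufs7 had a change of 0.46 (SE 0.16, adjusted p = 0.102) and Ndufv2 of 0.42 (SE 0.14, adjusted p = 0.0977), while Ndufv1, which binds NADH, had -0.15. The 27 members outside the core had a median of 0.19 and hold all 3 that rose (11.1% called). Of these 3, Ndufa4 is assigned to complex IV as a protein, and Ndufa11 rose on 1 of its 2 probe sets. Ndufs5, an accessory subunit, had a weak signal on the probe set used. It had 4.68, 4.93 and 5.02 after withdrawal, against 4.52, 5.11 and 4.74 on continuous NTBC, which overlap (change 0.09, adjusted p = 0.816). A brighter probe set that Ndufs5 shares with Ndufs5-ps had a mean signal of 8.27 and a change of -0.08. Ndufa4l2, a hypoxia-induced relative of Ndufa4, had 5.27, 5.54 and 5.47 after withdrawal, against 5.82, 5.53 and 5.80 on continuous NTBC. These ranges overlap at 1 continuous array, and its change of -0.29 did not pass (adjusted p = 0.296).

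Complex II, succinate dehydrogenase, is shared with the tricarboxylic acid cycle and is encoded wholly in the nucleus. None of its 4 subunits passed with limma, and 1 had an unadjusted p under 0.05, where 23.5% of all probe sets did. The median change was 0.11, or 0.062 without continuous replicate 3 and 0.16 without continuous replicate 1. Sdhc, a membrane anchor, had 10.00, 9.95 and 9.78 after withdrawal, against 9.61, 9.39 and 9.37 on continuous NTBC. Its groups were separate, and its change of 0.45 (SE 0.15) had an adjusted p of 0.0912 in limma. Sdha, the flavoprotein subunit, had 10.91, 11.02 and 10.79 after withdrawal, against 11.24, 11.11 and 11.15 on continuous NTBC. Its groups were separate in the other direction, with a change of -0.26 (95% interval -0.58 to 0.06, adjusted p = 0.310). Sdhd, the other anchor, had a change of 0.17, and Sdhb, the iron-sulfur subunit, of 0.04 (95% interval -0.27 to 0.35), both with overlapping groups.

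Complex III passes electrons from ubiquinol to cytochrome c. Of its 9 members, 0 rose and 1 fell (Uqcrq), with a median of 0.32. The share called was 11.1%, beside 9.40% of all probe sets. Of probe sets with a mean log2 signal of at least 7, as 8 of the 9 had, 27.2% passed. After withdrawal 4 members lay wholly higher and 1 wholly lower, where 37.9% and 16.5% of such bright probe sets did. The electron-carrying subunits Uqcrfs1, the Rieske iron-sulfur protein, and Cyc1, cytochrome c1, had higher means after withdrawal by 0.46 and 0.38, with limma adjusted p-values of 0.124 and 0.202. The core proteins Uqcrc1 and Uqcrc2 had 0.38 and 0.32, with separate groups for both. Uqcrc1 had 10.71, 10.62 and 10.57 after withdrawal, against 10.25, 10.28 and 10.22 on continuous NTBC (adjusted p = 0.120). Uqcrb, a small subunit like Uqcrq, had a change of 0.39 (SE 0.15, adjusted p = 0.140), opposite in sign to Uqcrq. The other small subunits Uqcrh and Uqcr11 had -0.05 and -0.06, and both signs turned with median centring. The pseudogene Uqcrh-ps1 was below the lower quartile of its array on 5 arrays and had a change of -0.29.

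Complex IV, cytochrome c oxidase, has subunits with tissue-restricted forms. None of its 15 members passed with limma, and 3 had an unadjusted p under 0.05, where 23.5% of all probe sets did. The median was -0.02. With Ndufa4 and Ndufa4l2 counted here, 1 of 17 members rose (Ndufa4), 2 of 31 remained called in complex I, and neither median changed. The 8 subunits of the forms found in liver had a median of 0.30, with 6 positive and 2 negative changes. Cox6a1, the liver form of subunit 6a, had 12.65, 12.59 and 12.68 after withdrawal, against 12.16, 12.22 and 12.33 on continuous NTBC. The groups were separate, and the change of 0.40 (SE 0.14) had an adjusted p of 0.106 in limma. Cox6b1 (0.43) and Cox5a (0.35) were also separate between groups, while Cox7a2 (0.39), Cox8a (0.25) and Cox7b (-0.14) overlapped.

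The 6 forms known from striated muscle or testis had changes from -0.32 to 0.02. Cox7a1, the heart and muscle form of subunit 7a, had 5.35, 5.24 and 4.98 after withdrawal, against 5.68, 5.49 and 5.36 on continuous NTBC. These groups were just separate, and the change of -0.32 did not pass (adjusted p = 0.268). The muscle forms Cox6a2 and Cox8b had -0.19 and 0.02, and the testis forms Cox6b2, Cox7b2 and Cox8c had -0.05, -0.05 and -0.02. Cox7b2 and Cox8c were below the lower quartile of the array on all 6 arrays and Cox8b on 1, so their signals are near the bottom of the scale and no background level is given. Cox7a2l, a supercomplex factor of which C57BL/6 mice carry a shortened form, had a change of -0.11 (95% interval -0.42 to 0.20).

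Complex V had 18 members, of which none passed with limma. An unadjusted p under 0.05 was found for 5 of them, where 23.5% of all probe sets had one, and the median was 0.06. That median was 0.0059 without withdrawal replicate 2 and 0.16 without withdrawal replicate 3. The 5 subunits of the catalytic F1 head and its central stalk had positive changes, from 0.01 (Atp5c1) to 0.53 (Atp5b), but those of Atp5c1 and Atp5e turned negative with quantile normalization (-0.092 and -0.11). Atp5b, the catalytic beta subunit, had 12.36, 12.31 and 12.06 after withdrawal, against 11.88, 11.53 and 11.73 on continuous NTBC. Its groups were separate and its adjusted p was 0.0688 in limma (log2 change 0.53, SE 0.16). Atp5d, of the central stalk, had a change of 0.50 (SE 0.15, adjusted p = 0.0730) and Atp5pb, of the peripheral stalk, also 0.50 (SE 0.15, adjusted p = 0.0747).

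The 3 genes for the c subunit of the membrane rotor, whose mature proteins are identical, all had negative changes. Atp5g1 had 5.50, 6.01 and 5.68 after withdrawal, against 5.86, 6.58 and 6.91 on continuous NTBC. The groups overlapped because continuous replicate 1 was below withdrawal replicate 2, and the change of -0.72 (SE 0.25) had an adjusted p of 0.115 in limma. Without continuous replicate 1 the change was -1.02 (adjusted p = 0.0121). Atp5g3 had 8.95, 9.02 and 8.76 after withdrawal, against 9.33, 9.12 and 9.18 on continuous NTBC, which are separate, with a change of -0.30 (adjusted p = 0.257, and 0.0464 with quantile normalization). Atp5g2 had a change of -0.22 with overlapping groups. The pseudogene Atp5c1-ps was below the lower quartile on all 6 arrays and had a change of -0.05.

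**Figure D2:**
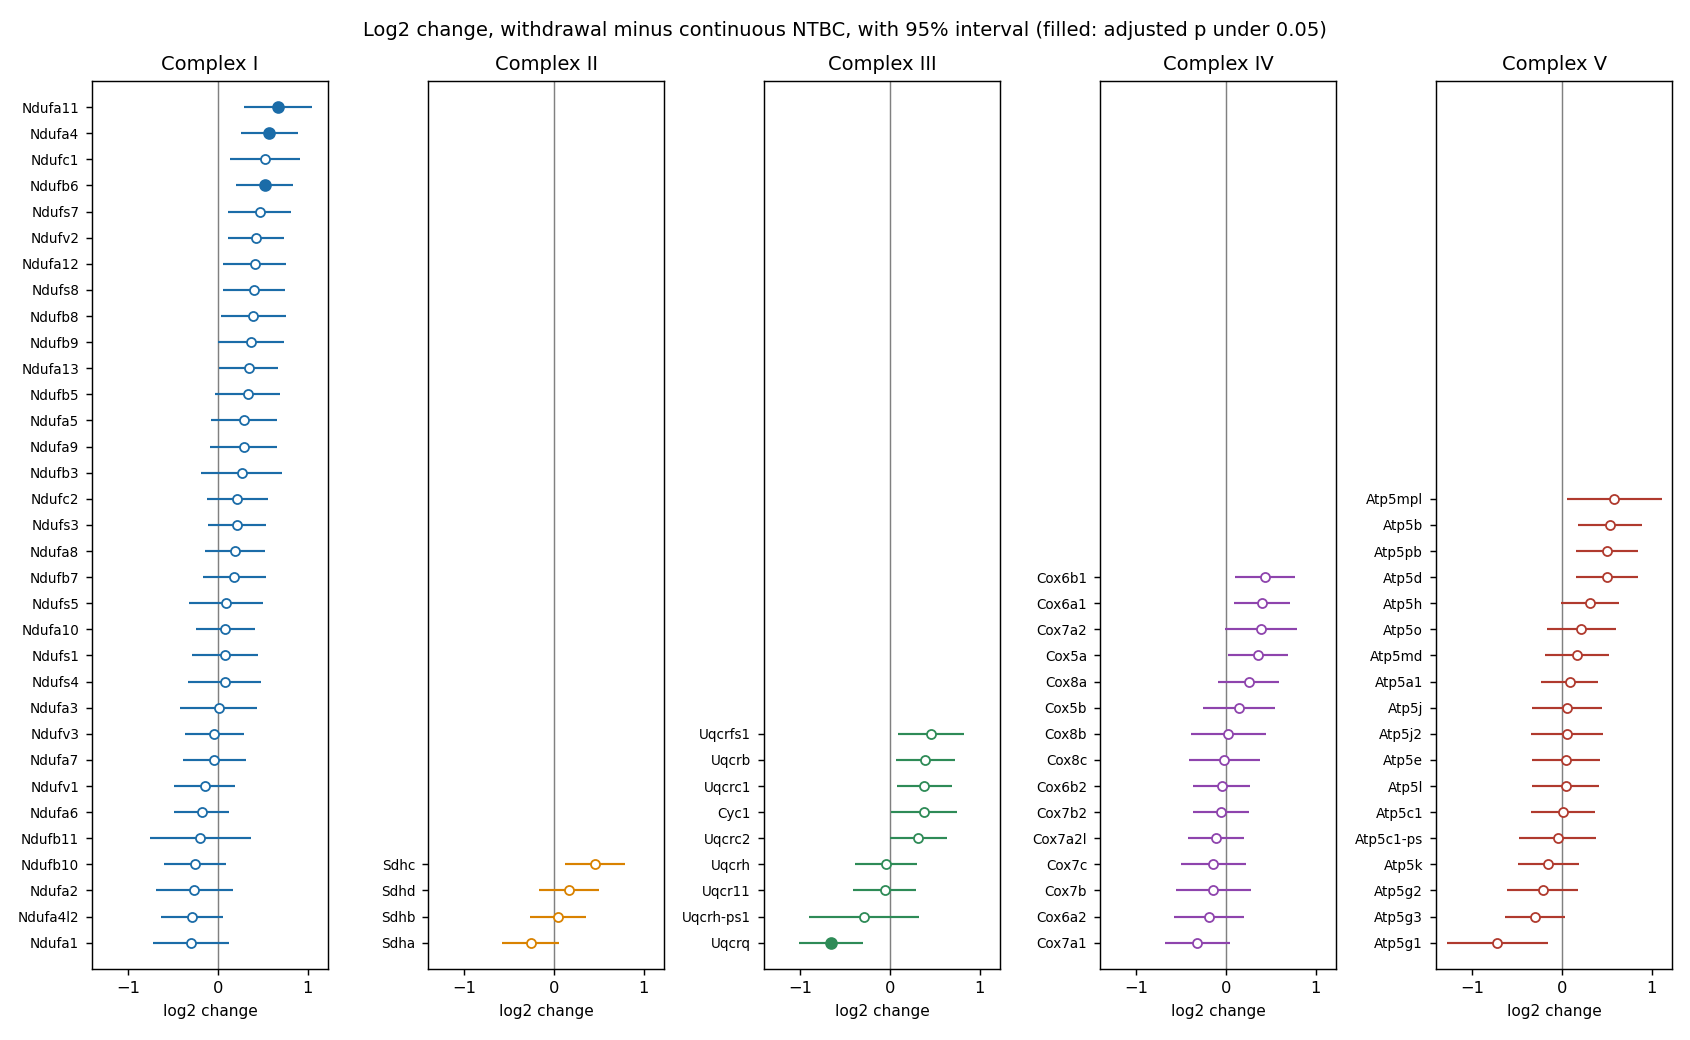
Log2 change (withdrawal minus continuous NTBC) of the 79 members, one panel for each complex by symbol, ordered by size with 95% intervals as lines. Filled points passed the adjusted p threshold: 3 in complex I, 1 in complex III and 0 elsewhere. Most changes lie between -0.3 and 0.5.

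The signs of the changes lean upward, and so do those of other well-detected transcripts. Of 79 members, 52 had a positive change (65.8%) and the median was 0.09, where the median of all probe sets was -0.08. Members have bright probe sets, since 61 of 79 had a mean log2 signal of at least 7. This boundary was chosen after the data were seen. Among the 7324 probe sets above it the median change was 0.18, 64.5% were positive and 27.2% passed (18.8% higher and 8.41% lower). The 61 bright members had a median of 0.25, 73.8% were positive, and 4 (6.56%) passed. Of these 61, 23 lay wholly higher after withdrawal, where 37.9% of bright probe sets did, and 4 wholly lower, where 16.5% did. The 18 dimmer members had a median of -0.05, and 0 passed with limma (1 at an unadjusted p under 0.05, where 23.5% of all probe sets passed).

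**Figure D3:**
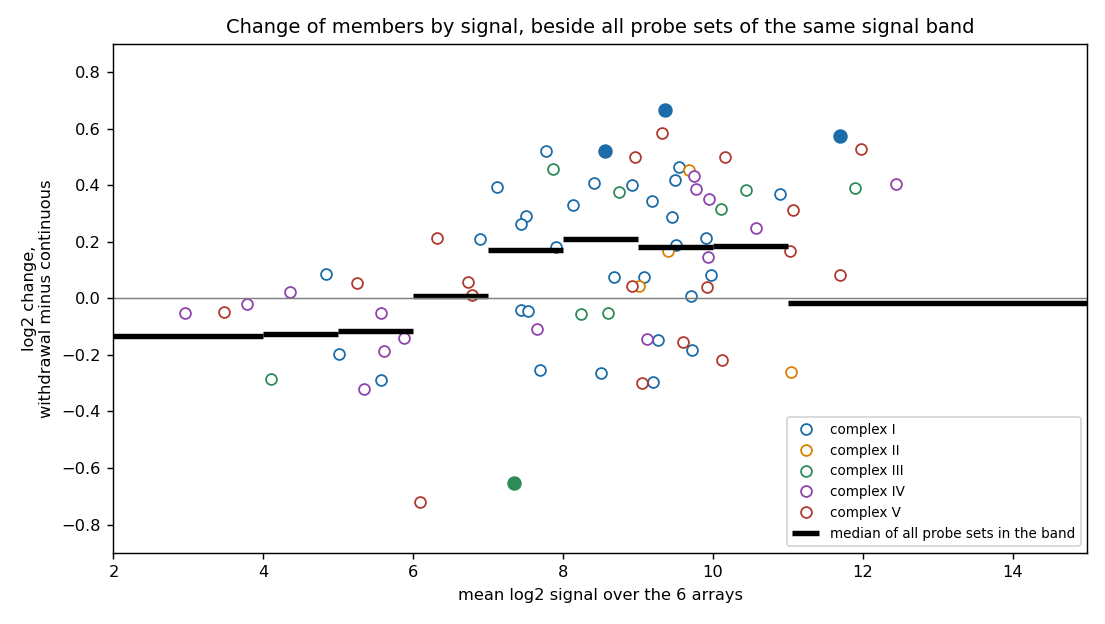
Log2 change (withdrawal minus continuous) of each member against its mean log2 signal over the 6 arrays, with filled points for those that passed. Black bars are medians of all probe sets in each band of signal, which run from -0.13 in the dimmest band to 0.21 between 8 and 9. Members scatter around the bars, and above 11 their median is 0.35 where that of all probe sets is -0.02.

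Arrays of 1 group also differed from each other. The median deviation of all members from their own means was 0.11, 0.16 and -0.05 on withdrawal replicates 1 to 3, against -0.002, -0.13 and -0.13 on continuous replicates 1 to 3. Withdrawal replicate 3 was thus below continuous replicate 1. For complex III the withdrawal arrays had 0.15, 0.16 and -0.002, against -0.05, -0.19 and -0.18 for the continuous arrays, with no overlap. For complexes I, II, IV and V they overlapped, and in complex V withdrawal replicate 3 was the lowest of all 6 arrays at -0.14. Bright probe sets as a whole had 0.12, 0.16 and 0.01 on withdrawal arrays, against 0.03, -0.17 and -0.12 on continuous arrays, and the arrays had the same order as for the members. Whether this array-wide pattern sets the members' medians was not tested. Without withdrawal replicate 3 the median change of all members was 0.19, and without continuous replicate 1 it was 0.18.

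**Figure D4:**
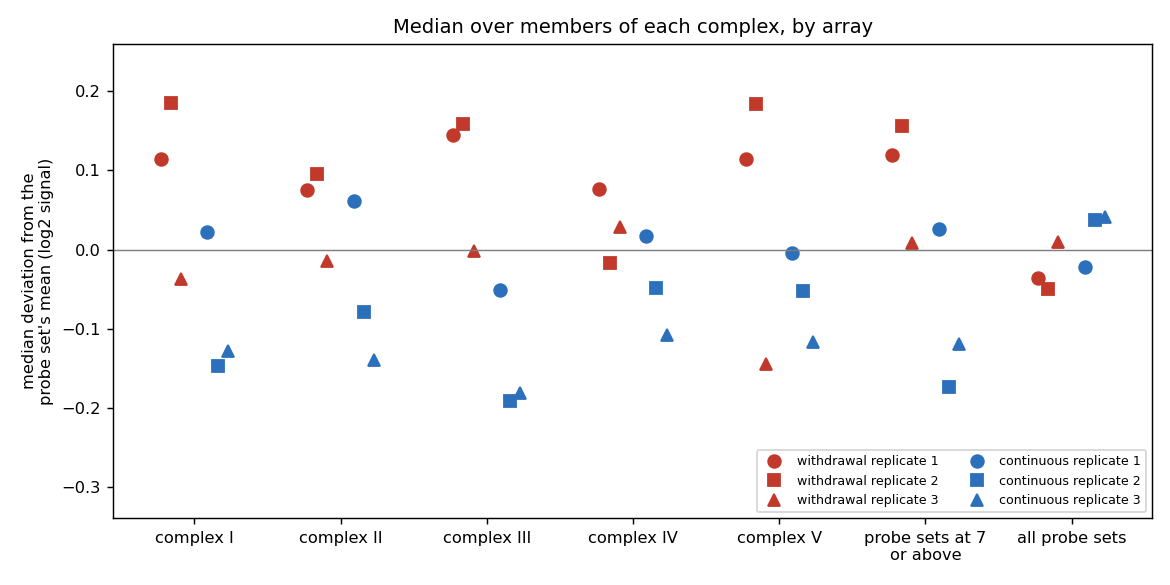
Median deviation (log2 signal) of the members of each complex from the mean of each probe set, by array, with withdrawal arrays left of continuous arrays. The last 2 columns show the same for probe sets with a mean signal of at least 7 and for all probe sets. Withdrawal replicate 3 lies within the range of the continuous arrays in complexes I, II and all bright probe sets and below it in complex V.

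For 9 members the array carries 2 probe sets with that symbol alone, and their changes had the same sign for 5 and opposite signs for 4. Ndufa11 was among those that disagreed. Its second probe set had 6.44, 6.45 and 5.98 after withdrawal, against 6.41, 6.82 and 6.57 on continuous NTBC, with overlapping groups and a change of -0.31 (SE 0.18, limma adjusted p = 0.343). Atp5d was among those that matched. Its second probe set had 8.89, 8.81 and 8.68 after withdrawal, against 8.28 on each continuous array, and passed (change 0.51, SE 0.14, adjusted p = 0.0466). Ndufa12, an accessory subunit of complex I, had 0.41 and 0.36 on its 2 probe sets, both separate between groups and both with an adjusted p of 0.153 when rounded. Atp5g2 had -0.22 on both, while Cox5b, Cox7b and Atp5e had opposite signs with overlapping groups.

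Some other genes of respiration had larger changes than any of the 79 members, whose widest was -0.72 (Atp5g1). The 2 called probe sets that subunits share with other genes, described near the end, had changes of 0.82 and 0.84. Lists of the other genes of respiration were drawn from the pathway's textbook members. Cycs, cytochrome c, which carries electrons from complex III to complex IV, had 11.57, 11.67 and 11.62 after withdrawal, against 11.00, 10.73 and 10.96 on continuous NTBC. It rose 1.65-fold with separate groups (log2 change 0.72, SE 0.15, limma adjusted p = 0.0117). Of the 5 measured subunits and carriers that the symbols had left out, 1 rose (Cycs) and 0 fell (20% called). Of all probe sets 9.40% passed, and of those with a mean log2 signal of at least 7, as 2 of the 5 had, 27.2%. Ndufab1, the acyl carrier protein of complex I, had a change of 0.45 (adjusted p = 0.0981). Cox4i1, the main form of a large nuclear subunit of complex IV, had a change of -0.12 (adjusted p = 0.710). None of the 13 mitochondrially encoded subunits was found by symbol among the probe sets used here, so only nuclear genes are described.

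Atpif1, which inhibits ATP hydrolysis by complex V, had 8.85, 8.86 and 8.70 after withdrawal, against 7.65, 7.36 and 7.37 on continuous NTBC. It rose 2.54-fold (log2 change 1.34, SE 0.15, adjusted p = 4.51e-04) and passed in all 13 alternatives, with adjusted p from 1.02e-04 to 0.00417. Dmac2l, a coupling factor of complex V, rose 2.01-fold (adjusted p = 0.0134). They were the 2 of 5 members of the complex V assembly and inhibitor list that passed, beside 9.40% of all probe sets. Of probe sets with a mean log2 signal of at least 7, as 4 of the 5 had, 27.2% passed. This list had a median of 0.22.

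Assembly factors of complex IV went in both directions, with 4 of 17 measured higher and 1 lower and a median of 0.26. The share called was 29.4%, beside 9.40% of all probe sets. Of probe sets with a mean log2 signal of at least 7, as 12 of the 17 had, 27.2% passed. Cox19, a copper-related factor, had 7.56, 7.33 and 7.49 after withdrawal, against 6.30, 6.41 and 6.43 on continuous NTBC. It rose 2.11-fold with separate groups (log2 change 1.08, SE 0.14, adjusted p = 0.00123) and passed in all 13 alternatives. Sco1 and Cox17, which deliver copper to the oxidase, rose 1.61-fold and 1.48-fold, and Cox18, which inserts a mitochondrially encoded subunit, 1.52-fold. Coa3, an early assembly factor, fell (log2 change -0.81, adjusted p = 0.0321). The 16 assembly factors of complex I, 4 of complex II and 6 of complex III gave 0 calls with limma. At an unadjusted p under 0.05 there were 2, 1 and 2, where 23.5% of all probe sets passed. The smallest p-values among them were those of Acad9 (0.45, adjusted p = 0.106) and Ndufaf6 (0.40, 0.145) for complex I and of Sdhaf2 (0.32, 0.199) and Sdhaf3 (0.32, 0.360) for complex II. For complex III they were those of Uqcc2 (0.53, 0.0534) and Uqcc3 (-0.47, 0.133), which had opposite signs.

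The shares called in the next lists stand beside 9.40% of all probe sets and 27.2% of those with a mean log2 signal of at least 7. Genes that bright were 6 of 7 that feed the ubiquinone pool, 8 of 10 for its synthesis and 10 of 16 regulators. All measured genes of the tricarboxylic acid cycle, import and chaperone lists were that bright. Enzymes that feed electrons into the ubiquinone pool moved both ways, with 3 of 7 measured called (42.9%). Sqor, which oxidises sulfide, rose 1.94-fold (adjusted p = 0.00599), while Prodh, proline dehydrogenase, fell by 1.69 and Etfdh, which passes on electrons from fatty acid oxidation, fell by 0.60 on the log2 scale. Of 10 measured genes of ubiquinone synthesis, Coq7 (0.67) and Coq8b (0.68) rose and Coq8a (-0.84) fell, so that 30% were called. Of 12 measured genes of the tricarboxylic acid cycle, 1 rose and 0 fell (8.33%), with a median of 0.26. This was Mdh2, mitochondrial malate dehydrogenase, with 11.40, 11.27 and 11.20 after withdrawal, against 10.09, 10.01 and 10.23 on continuous NTBC (2.27-fold, adjusted p = 8.07e-04). Cs, citrate synthase, had a change of 0.53 (adjusted p = 0.0701).

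Among 16 regulators of mitochondrial genes, 4 were called (25%). Tfb2m (0.79) and Polrmt (0.54), which transcribe mitochondrial DNA, and Hif1a (0.77), the hypoxia factor, rose, and Ppargc1b (-0.71), a coactivator, fell. Ppargc1a, the coactivator best known for raising mitochondrial mass, had a change of -0.17 (95% interval -0.66 to 0.32, adjusted p = 0.683). Of 10 genes of the outer membrane and protein import, Vdac3 (0.61) and Tomm20 (0.58) rose (20%), and the median was 0.34. Of 10 mitochondrial chaperones and proteases, Hspe1 (0.65) and Afg3l2 (0.62) rose (20%), and the median was 0.36. On a list of 5 measured supercomplex and inducible proteins only Aox1 rose (1.44), which in mouse is a cytosolic aldehyde oxidase and no part of the chain. Higd2a, a supercomplex factor on that list, had a change of 0.44 (adjusted p = 0.136). Many of these calls depended on the setting. Of 13 alternatives, Mdh2, Sqor, Prodh and Aox1 passed in 13, Coq7, Coq8a and Tfb2m in 12, Cycs in 11, and Dmac2l and Hif1a in 10. Sco1 and Vdac3 passed in 9, Etfdh, Ppargc1b and Hspe1 in 8, Cox18, Coa3, Coq8b, Tomm20 and Afg3l2 in 7, and Cox17 and Polrmt in 6.

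**Figure D5:**
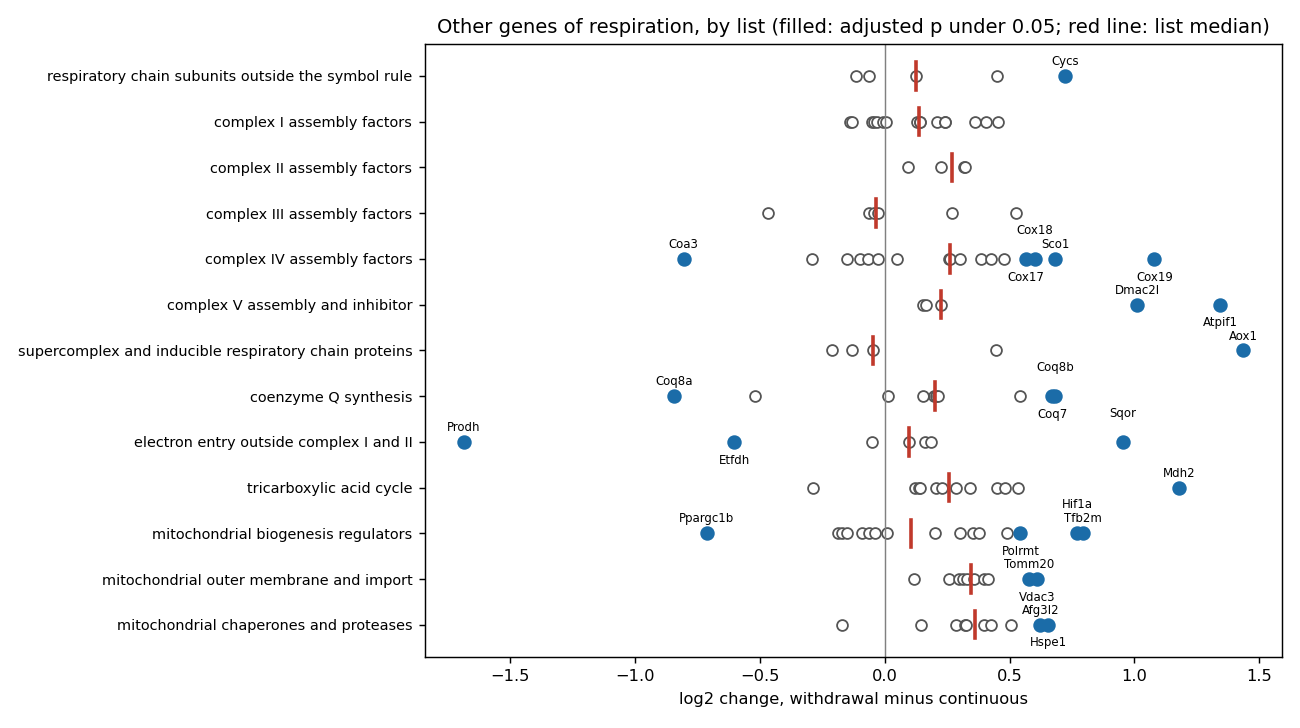
Log2 change (withdrawal minus continuous NTBC) of other genes of respiration, one row for each list, with filled and named points for those that passed and a red line at the list median. Aox1, Atpif1, Mdh2, Cox19 and Dmac2l lie above 1, while the medians lie between -0.05 and 0.36.

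Markers of other cell types were read beside these values. Of all probe sets 9.40% were called and 23.5% had an unadjusted p under 0.05. Of those with a mean log2 signal of at least 7, 27.2% were called. All 6 endothelial and 8 hepatocyte markers were that bright. Of 6 endothelial markers, 2 rose (Lyve1 by 1.07 and Clec4g by 0.81), the median was 0.39, and the summed linear signal of the 6 was 1795 to 1942 in withdrawal arrays and 1133 to 1390 in continuous arrays. Of 8 hepatocyte markers, 6 had negative changes and 2 of these fell (Cps1 by 1.08 and Tat by 1.23), the median was -0.21, and their sum was 56270 to 62100 in withdrawal arrays and 66090 to 72110 in continuous arrays. Of 35 other markers measured, for macrophages, stellate cells, bile ducts, lymphocytes, red cells, striated muscle and brown fat, 0 passed with limma (6 at an unadjusted p under 0.05). All 6 macrophage markers had positive changes, with a median of 0.37 and overlapping groups for each. The medians were 0.30 for stellate cells and 0.23 for red cells, with 1 red cell marker measured. They were -0.21 for bile ducts, -0.07 for lymphocytes, -0.09 for striated muscle and -0.18 for brown fat. Of the 35 markers, 8 had a mean log2 signal of at least 7. Cox7a1 and Cox8b are themselves on the brown fat list. The part of cell composition in the members' values was not tested.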

How the data were processed

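Liver RNA of 3 withdrawal and 3 continuous NTBC samples was measured on whole-transcript gene arrays. The authors deposited 1 normalized linear intensity per probe set and array. The submitters' processing notes name Transcriptome Analysis Console. Its version, background correction and normalization are not given in the sources used here. No detection flags, scan dates or slides were at hand, so batches could not be examined, and the number of arrays limits the precision.

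After a log2 transform, the 34472 probe sets entered a single model (limma 3.58.1 under R 4.3.3, lmFit and eBayes, withdrawal minus continuous, two-sided). P-values were adjusted over all of them by Benjamini-Hochberg, with a threshold of 0.05, no filter and no further normalization. Genes were named from the platform annotation, where 23521 probe sets had 1 symbol, 1814 several and 9137 none. All 79 members matched RefSeq of GRCm38.p6 by gene ID. The model code was tested on simulated data.

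Members and lists were chosen with earlier results of these data known. By rule, the text names members past the threshold, the 3 smallest p-values and the highest and lowest mean signal of each complex, all of complex II and all isoform pairs. From other lists it names genes past the threshold and the 2 smallest p-values, with Fah, Hpd and Ppargc1a. Further members and markers describe a subgroup and were picked with their values in view. Alternatives were quantile normalization, median centring, a filter that left the 22981 brightest probe sets, a replicate block, array weights, trend and robust options, each array left out, averaged probe sets per gene, and Ndufa4 and Ndufa4l2 counted in complex IV. Probe sets with a mean log2 signal of at least 7 were added as an alternative after the data were seen.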

Additional observations from a re-analysis of the deposited data

Results flagged for a closer look

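A total of 10 probe sets carry the symbol of a respiratory chain subunit together with another gene and were not counted among the members. Of these 10, 2 were higher after withdrawal in limma and 0 lower. Of all probe sets, 6.21% were called higher and 3.20% lower. Of those with a mean log2 signal of at least 7, as both called ones had, 18.8% were higher and 8.41% lower. The probe set shared by Ndufb4, Ndufb4b and Ndufb4c, a complex I subunit and its copies, had 7.73, 7.85 and 7.66 after withdrawal, against 6.93, 6.79 and 7.05 on continuous NTBC. Its log2 change was 0.82 (SE 0.15, adjusted p = 0.00640), and it passed in all 13 alternatives. The probe set shared by Uqcr10, a complex III subunit, and Gm6293 had 8.23, 8.29 and 7.99 after withdrawal, against 7.86, 7.09 and 7.03 on continuous NTBC. Its log2 change was 0.84 (SE 0.22, adjusted p = 0.0407), and it passed in 7 of 13 alternatives. Which of the genes on each probe set gave the signal cannot be told apart.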

How the results depend on the processing

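Of 79 members 4 passed. The count was 2 with the replicate block, 15 with array weights, 12 with trend and robust options, and 0 to 3 with 1 array left out. The block rests on a shared number alone, since deviations of arrays with the same replicate number correlated at 0.16, -0.12 and 0.22. Of all probe sets 3241 passed, against 5588 with array weights, 1454 to 4210 with 1 array left out and 1990 at a signal of at least 7. The median change of all members was 0.09, against 0.19 with median centring, 0.25 at a signal of at least 7 and 0.063 to 0.19 with 1 array left out. Quantile normalization gave medians of 0.10 for complex I, -0.036 for complex II, 0.21 for complex III and 0.065 for complex IV, and median centring gave 0.20 for complex II, 0.42 for complex III and 0.080 for complex IV. The median of complex IV was 0.048 without dim probe sets and 0.30 at a signal of at least 7. The median of all probe sets was -0.08, against 0.02 with median centring and -0.02 with quantile normalization. Of the calls, 66.0% were higher, against 77.2% with centring and 58.3% with quantile normalization.

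Over 13 alternatives the sign of the change turned in at least 1 for 25 of 79 members and was kept for 54, and 0 of the 25 passed with limma in any of these settings. With quantile normalization Atp5c1-ps had 0.096, Cox6b2 0.026, Cox7b2 0.065, Cox8c 0.11, Sdhb -0.13, Atp5c1 -0.092 and Atp5e -0.11. With median centring Atp5c1-ps had 0.050, Cox6b2 0.050, Cox7b2 0.047, Cox8c 0.080, Uqcr11 0.043 and Uqcrh 0.050. With averaged probe sets Atp5e had -0.13 and Cox5b -0.11. With array weights Atp5c1-ps had 0.033, Cox7b 0.0016, Cox7b2 0.0019, Cox8b -0.034, Ndufs5 -0.035 and Ppargc1a 0.0032. With 1 array left out, changes ran from -0.20 to 0.087 for Atp5c1-ps, -0.21 to 0.0067 for Cox4i1, -0.095 to 0.0049 for Cox6b2, -0.26 to 0.022 for Cox7b, -0.12 to 0.15 for Cox8b and -0.17 to 0.13 for Cox8c. They ran from -0.30 to 0.088 for Fah, -0.048 to 0.25 for Ndufs5, -0.32 to 0.078 for Ppargc1a, -0.0050 to 0.095 for Sdhb and -0.50 to 0.095 for Uqcrh-ps1. The ranges were -0.077 to 0.095 for Atp5c1, -0.065 to 0.14 for Atp5e, -0.15 to 0.068 for Uqcr11 and -0.16 to 0.047 for Uqcrh. Calls of single genes were lost in 119 and gained in 38 of the gene and setting pairs. The cause of these differences was not tested.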
